A study of Mus musculus with 4 samples.

Results

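Transcripts of 6 genes of the renin-angiotensin system, Ren1, Agt, Agtr1a, Agtr2, Ace and Atp6ap2, were followed in dissociated kidneys of newborn mice. They were taken by symbol from the 31053 genes of the count matrices, and all 6 were found in both libraries. Droplet single-cell RNA sequencing had been done on 2 libraries, each from whole kidney. The control genotype is given as Six2Cre (SixCre in the sample title), a recombinase under the control of the Six2 gene, and the comparison genotype was Six2CreTet2/3f/f, which adds floxed alleles of Tet2 and Tet3, enzymes that oxidise methylated cytosine. The latter is called the floxed library here. The genotype labels name Six2Cre in both, and they give neither strain nor the number of animals per library. Six2 is active in nephron progenitors, which give rise to podocytes and tubules but not to vessels, stroma or blood cells. Recombination was not measured in any class of cells.

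Renin, an aspartyl protease released by juxtaglomerular cells of the afferent arteriole, cuts angiotensinogen to angiotensin I. Angiotensin-converting enzyme turns this into angiotensin II, which acts through the type 1 receptor to constrict vessels and retain salt, and through the type 2 receptor, which is abundant in fetal mesenchyme. In the developing kidney renin cells are spread along the arteries before they are confined to the glomerular entrance, and loss of the system disturbs the vessels, the medulla and the papilla.

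The members matched RefSeq entries of GRCm38 (mm10) in 6 of 6 cases. Ren1 (ENSMUSG00000070645) lies at chr1:133350674-133360320, Agt (ENSMUSG00000031980) at chr8:124556587-124569706, Agtr1a (ENSMUSG00000049115) at chr13:30336356-30382867, Agtr2 (ENSMUSG00000068122) at chrX:21484624-21488833, Ace (ENSMUSG00000020681) at chr11:105967948-105989964 and Atp6ap2 (ENSMUSG00000031007) at chrX:12587759-12617051. Promoter sequences were given for 5 of the 6, with 2 entries for Ace, whose second start lies inside the gene and is known for the shorter enzyme of testis. The 100 bases before the start are printed for the genes with a more restricted source and, for contrast, for Atp6ap2. The Atp6ap2 level was spread more evenly, with a lowest control level of 24.5 CPM among the named classes. Capitals mark the TATA box letters TATAAA, searched on both strands. They stand at chr1:133350574-133350673 (+ strand) for Ren1, chr8:124569707-124569806 (− strand) for Agt, chrX:21484524-21484623 (+) for Agtr2, chr11:105967848-105967947 (+) for the start of full-length Ace, and chrX:12587659-12587758 (+) for Atp6ap2.
Ren1: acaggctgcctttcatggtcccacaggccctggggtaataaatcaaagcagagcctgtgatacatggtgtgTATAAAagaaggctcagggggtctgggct
Agt: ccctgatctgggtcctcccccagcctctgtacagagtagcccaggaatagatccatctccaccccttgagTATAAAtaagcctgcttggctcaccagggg
Agtr2: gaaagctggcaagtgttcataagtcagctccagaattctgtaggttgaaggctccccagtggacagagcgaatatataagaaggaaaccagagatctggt
Ace: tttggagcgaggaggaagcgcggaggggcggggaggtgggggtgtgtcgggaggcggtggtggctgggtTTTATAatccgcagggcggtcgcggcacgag
Atp6ap2: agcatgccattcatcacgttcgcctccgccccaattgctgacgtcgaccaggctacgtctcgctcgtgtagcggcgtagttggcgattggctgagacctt

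The letters were found in the gene's own direction 29 bases before the start of Ren1 and 30 bases before that of Agt, and in the opposite direction 31 bases before the full-length Ace start. Of all 32851 promoter windows of this length, 5.56% hold them on either strand and 3.8% in the gene's direction. Neither Agtr2, Atp6ap2 nor the internal Ace start has them in this window. Only these exact letters were searched, so their absence does not show that a start lacks a TATA box of another spelling. Such a match is a description of the sequence. Counts come from transcript 3′ ends, so transcripts from the Ace starts cannot be told apart here.

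The control library held 25736 barcodes with 197745868 unique molecular identifiers (UMIs, counted transcript molecules) and the floxed library 22543 with 115427704, of which 19493 and 14393 cells were kept, at medians of 5993 and 4781 UMIs per cell. The libraries shared 174 barcodes, and 88 were kept in both. Levels are counts per 1000000 (CPM) of all UMIs of a class of cells. Intervals are at 95% and hold the error of counting alone. Each genotype had 1 library, which allows no test between animals. A difference was called past the size rule where the higher library had at least 25 CPM and the whole interval lay beyond 1.5-fold. Tet3 stood at 91.1 CPM in control and 42.7 CPM in floxed nephron progenitor-like cells, and Tet2 at 28.8 and 24.7 CPM. A 3′ tag outside the floxed exons would not show the deletion. The 6 erythroid markers summed to 1989 CPM in control and 5380 CPM in floxed stroma-like cells, and to 1590 and 5197 CPM in proximal tubule-like cells, with 4 of the 6 called higher in each class. The labels state that 10000 cells were loaded per library, fewer than the barcodes in the files or the 21188 and 15645 that passed the filter on depth, genes and mitochondrial share.

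Cells fell into 29 clusters, of which 24 were named by markers into 13 classes, called class-like because the names were rebuilt from expression. Renin-angiotensin genes were left out of the genes used for clustering, and none was a marker. The 6 genes differed in the classes where their levels were highest, and some shared a class. Ren1 was found at a high level in mural-like cells, the smooth muscle and pericyte type of cell around vessels. Agt and Ace were highest in proximal tubule-like cells, and the Agtr1a and Agtr2 receptors in mural-like and stroma-like cells. Atp6ap2 had UMIs in all classes, as had Ren1 and Agtr2. It was highest in collecting duct-like cells in the control and in macrophage-like cells in the floxed library.

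**Figure D1:**
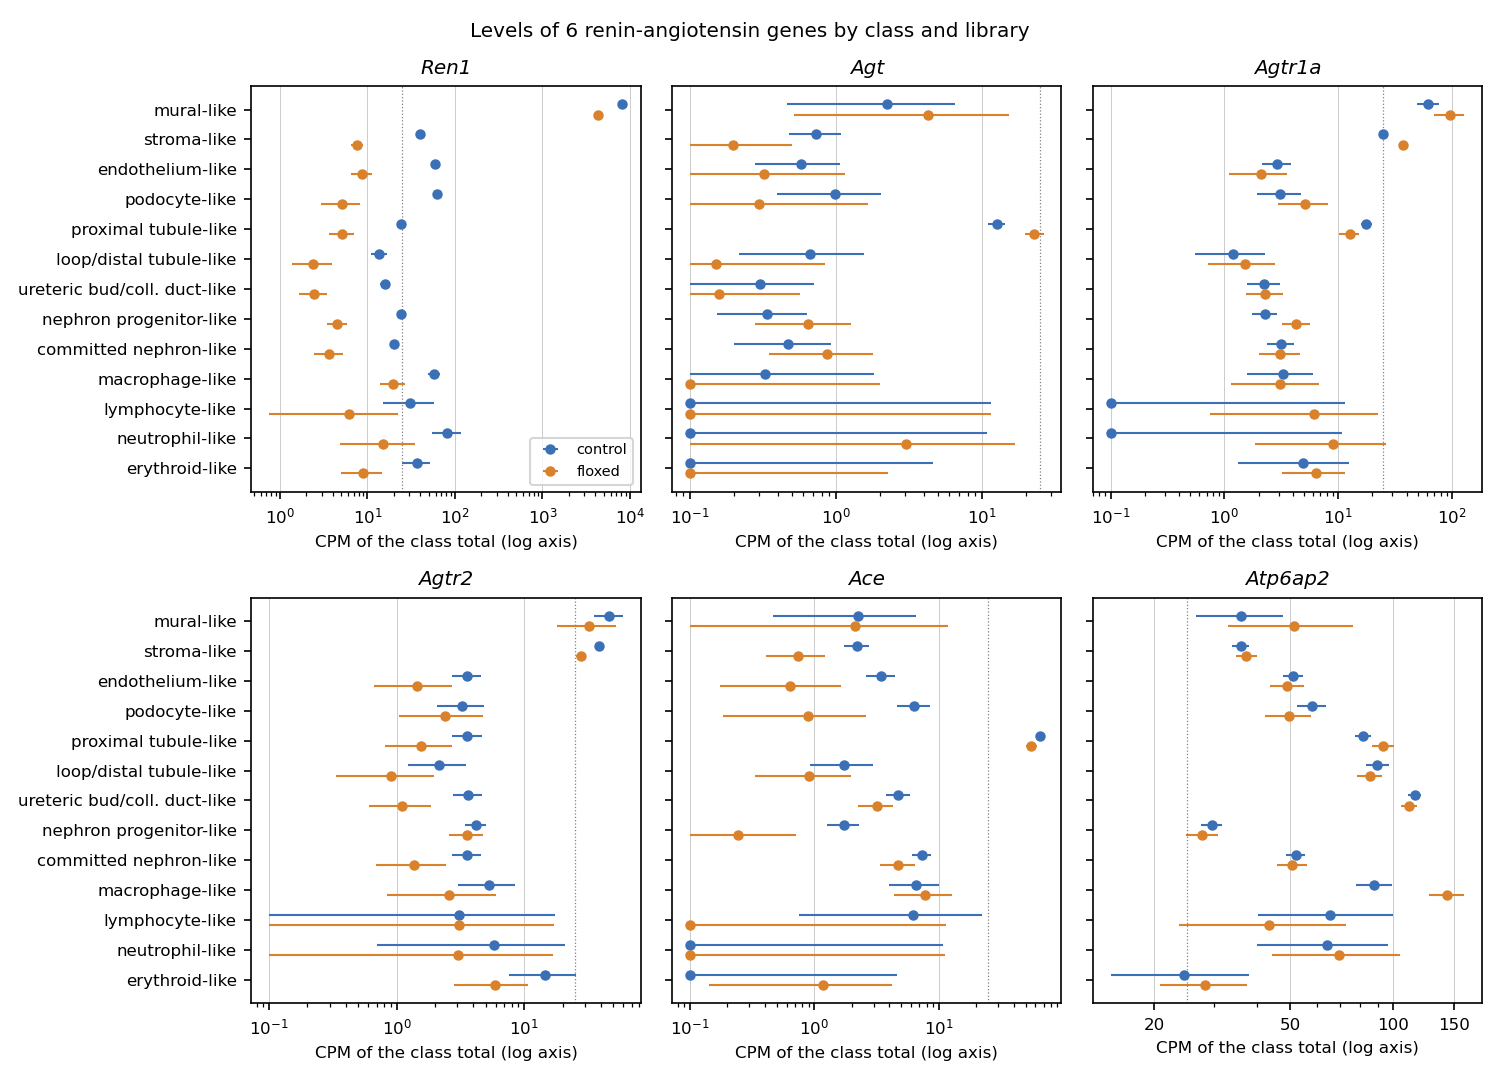
Level of each of the 6 genes in CPM of the class total (log axis) in the 13 named classes of cells, control in blue and floxed in orange, with 95% counting intervals as bars; values under 0.1 CPM are drawn at 0.1 and the dotted line marks 25 CPM. Ren1 in mural-like cells stands at 8153 and 4319 CPM, far to the right of all other classes. The lowest control level of Atp6ap2 is 24.5 CPM, in erythroid-like cells.

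Ren1, the renin gene, fell in floxed mural-like cells. The class held 10907 Ren1 UMIs in 233 control cells and 2020 in 110 floxed cells, which is 8153 CPM (8001 to 8307) and 4319 CPM (4132 to 4511). The floxed level was 1.89-fold lower (1.80 to 1.98), and 0.598% of the 5855 genes with at least 25 CPM in this class were called lower. Of the 4 members that reached 25 CPM in mural-like cells Ren1 was the only call, beside a share of 1.71% of genes called in either direction. Mural-like cells were themselves 1.2% of kept control cells and 0.764% of kept floxed cells. Where a mouse strain carries the near-identical copy Ren2, its reads would be counted with Ren1, and the labels do not give the strain.

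Renin RNA was concentrated in very few cells. The cell with the most held 1897 Ren1 UMIs in the control library and 601 in the floxed library. The top 3 cells held 24.9% of all Ren1 UMIs of kept control cells and 51.0% of those of floxed cells, and the top 5 held 33.0% and 66.8%. In mural-like cells the median was 0 in both libraries. The size of the mural-like difference rests on these cells: without the 3 richest in each library the levels were 5237 and 1575 CPM, 3.33-fold lower (3.08 to 3.60) in the floxed library. With cells thinned to 2000 UMIs, which weights them equally and leaves out 10 control and 11 floxed mural-like cells of lower depth, they were 7686 and 6495 CPM, and the difference no longer passed the rule.

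Fewer floxed cells were renin-rich. At least 10 Ren1 UMIs were found in 68 of the control cells, 0.349% (exact Clopper-Pearson interval 0.271% to 0.442%), and in 16 of the floxed cells, 0.111% (0.0636% to 0.181%). Within the mural-like class these were 55 of 233 cells, 23.6% (18.3% to 29.6%), and 14 of 110 cells, 12.7% (7.14% to 20.4%), and the intervals overlap. They treat the cells of a library as independent and do not hold the spread between animals. Near the limit of 10, from 5 to 19 Ren1 UMIs, lay 22 control and 6 floxed mural-like cells, some of them counted above. After thinning to 2000 UMIs, at least 5 Ren1 UMIs remained in 55 of 223 control mural-like cells, 24.7% (19.2% to 30.9%), and in 13 of 99 floxed ones, 13.1% (7.18% to 21.4%). In the mural-like cells with at least 10 Ren1 UMIs the median was 63 Ren1 UMIs in the control and 49.5 in the floxed library. Pooled over these cells, Ren1 made up 306 and 386.5 of every 10000 UMIs. The 14 floxed cells are too few to rank the libraries on renin RNA per renin-rich cell.

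**Figure D2:**
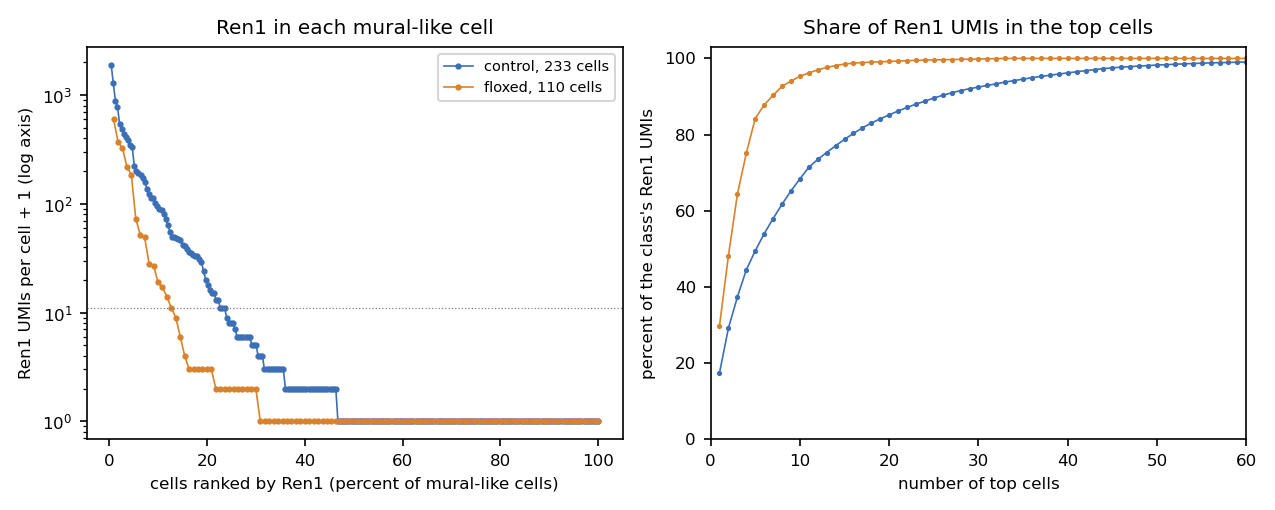
Left, Ren1 UMIs plus 1 (log axis) in each mural-like cell against its rank as a percent of the class, for 233 control cells (blue) and 110 floxed cells (orange), with 10 UMIs dotted. Right, the share of the class's Ren1 UMIs held by the top cells, which climbs faster in the floxed library.

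Renin-rich mural-like cells were set beside the other mural-like cells for genes of the renin cell and of smooth muscle, and the contrast varied between the libraries. Akr1b7, an aldo-keto reductase known as a companion of renin, stood at 642 CPM in control renin-rich cells against 114 CPM in other control mural-like cells, and at 913 against 74.4 CPM in the floxed library, with Ren1 itself left out of the totals. Crip1, a small LIM protein of renin cells, stood at 2518 against 878 CPM in the control and 1197 against 790 CPM in the floxed library. Of the contractile genes, Acta2, smooth muscle actin, had 5088 against 1569 CPM in the control and 5699 against 2327 CPM in the floxed library. Myh11, smooth muscle myosin, had 692 against 124 CPM and 304 against 199 CPM, and Tagln, an actin-binding protein, 2318 against 627 CPM and 1359 against 980 CPM. The contrast of these 2 genes was smaller in the floxed library, from 15 Myh11 and 67 Tagln UMIs in its 14 renin-rich cells. Pdgfrb, a pericyte receptor, was lower in the renin-rich cells, at 114 against 432 CPM and 365 against 432 CPM, the floxed value from 18 UMIs. The mural markers Notch3 and Rgs5 were lower in the renin-rich cells of the control but higher in those of the floxed library. Notch3 had 141 against 161 CPM and 466.5 against 156 CPM, and Rgs5 826.5 against 1138 CPM and 1460 against 1323 CPM. The type 2 receptor gene Agtr2 had 17.6 CPM (6 UMIs) in the control renin-rich cells against 56.8 CPM (56 UMIs) in the other mural-like cells. In the floxed library it had 0 against 36.0 CPM (15 UMIs), the 0 from only 14 cells. The type 1 receptor gene Agtr1a had 49.8 against 67.0 CPM in the control and 142 against 91.25 CPM in the floxed library, the 142 from 7 UMIs. The cells were chosen by their Ren1 count, and these values carry no test.

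Outside the mural-like class Ren1 was close to the level in cells that should lack it. In the other 12 named classes 17.0% to 23.0% of control cells and 2.63% to 4.01% of floxed cells held a Ren1 UMI, against 108 of 233 and 33 of 110 mural-like cells. Erythroid-like and neutrophil-like cells, which should lack renin, together had 49.9 CPM in control and 9.83 CPM in floxed samples, above stroma-like cells with 40.2 and 7.57 CPM. Median depths were 4906 and 3672.5 UMIs in mural-like cells and 4782.5 and 4012 UMIs in erythroid-like cells. Over all cells but the mural-like ones the level was 34.3 and 5.94 CPM, 5.77-fold lower (5.28 to 6.32) in the floxed library. The size rule calls Ren1 lower in stroma-like, endothelium-like, podocyte-like and blood cells on this ground, and these calls are not read as a change in those cells. The share of genes called in either direction was 2.88% in podocyte-like, 2.53% in erythroid-like and 2.1% in neutrophil-like cells. Over all kept cells Ren1 stood at 102.3 and 28.6 CPM, 3.58-fold lower (3.43 to 3.74). Renin-rich cells outside the class numbered 13 in the control, 5 of them endothelium-like with 42 to 90 Ren1 UMIs, and 2 in the floxed library. Of the 13, 9 held at least 5 UMIs of the mural markers, against 10.7% of other control cells outside the class, and their median depth was 10820 UMIs. The part of cell pairs sharing a droplet in these 13 was not tested.

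Genes known to drive or accompany renin gave no call in mural-like cells. Of 19 listed regulators and products 11 reached 25 CPM, and 0 of these passed the size rule, with a median log2 ratio of 0.07 beside 0.03 over all genes. Akr1b7 stood at 247 CPM in control and 163 CPM in floxed mural-like cells (log2 −0.61, −0.99 to −0.24), and Crip1 at 1289 and 829.5 CPM (−0.64, −0.80 to −0.48). Rbpj, the Notch effector needed for renin cells, had 77.7 and 81.2 CPM, and Gnas, the stimulatory G protein subunit of the cyclic AMP pathway, 2287 and 2878 CPM. Other cell types moved with this class as well. The 8 mural markers summed to 3206 and 3532 CPM, none of them called, the 8 endothelium markers to 248 and 411 CPM, and the 6 erythroid markers to 3290 and 9775 CPM, with 4 called higher. The part of these in the Ren1 difference was not tested.

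Agt, the gene of angiotensinogen, the only substrate of renin, was scarce and lay mainly in proximal tubule-like cells. These held 205 of 313 Agt UMIs in the control (65.5%) and 176 of 209 in the floxed library (84.2%). The class level was 12.7 CPM (205 UMIs) in the control and 22.9 CPM (176 UMIs) in the floxed library, 1.81-fold higher (1.47 to 2.22). Neither level reaches 25 CPM, and no other named class went above 4.28 CPM in either library, so Agt was not assessed by the size rule in any class.

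The 2 proximal tubule-like clusters differed. In cluster 9, the larger one with 936 and 733 cells, Agt stood at 12.7 and 18.1 CPM (log2 0.51, 0.16 to 0.86). In cluster 12, with 357 and 107 cells and led by transcripts of the mature tubule such as Slc34a1, the phosphate transporter, and Kap, it rose from 12.6 CPM (50 UMIs) to 59.3 CPM (53 UMIs), a log2 ratio of 2.24 (1.65 to 2.83). That value passed the size rule, as did 4.59% of the 5387 genes tested in cluster 12. Agt UMIs were found in 8.12% of control and 20.6% of floxed cells of cluster 12. Liver cells are the main source of angiotensinogen in the body, and 1 floxed cell in cluster 12 held 65 UMIs of Alb, the albumin gene. It carried 2 Agt UMIs, and without it the floxed level in cluster 12 was 57.3 CPM (log2 2.19, 1.60 to 2.78). The 6 hepatocyte markers summed to 571 and 1216 CPM in cluster 12, the latter with the Alb UMIs of that cell included. Ttr, transthyretin, rose there from 237 to 644.5 CPM and Serpina1a, an antitrypsin, from 48.3 to 195 CPM. Afp, the alpha-fetoprotein gene, alone fell, from 272 to 189 CPM. In cluster 9 the 6 markers summed to 275 and 477 CPM. Only Ttr and Serpina1a rose there, and Afp fell from 138 to 111 CPM. The part of liver RNA in the Agt values was not tested. The cluster's 8 proximal tubule markers summed to 11540 and 12870 CPM. In unnamed cluster 10, which was led by the urothelial genes Upk3a and Upk1b, Agt had 25 UMIs (18.1 CPM) in the control and 3 UMIs (2.59 CPM) in the floxed library, a control level 7.0-fold higher (2.14 to 36.3) that rests on few counts.

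Ace, the converting enzyme, was found in the same class. Proximal tubule-like cells held 1062 of its UMIs in the control (67.6%) and 428 in the floxed library (75.4%). The level was 65.7 CPM (61.8 to 69.7) in the control and 55.7 CPM (50.6 to 61.2) in the floxed library, 1.18-fold lower (1.05 to 1.32), which did not pass the size rule. None of the 2 members tested in this class was called, beside 4.05% of 5462 genes. Cluster 9 had 57.3 and 51.1 CPM and the mature-type cluster 12 had 91.3 and 90.6 CPM, so that the clusters differed more than the libraries. With cells thinned to 2000 UMIs the direction turned, to a log2 ratio of 0.09 (−0.34 to 0.51). Endothelium of the adult makes Ace as well. Here endothelium-like cells had 59 control UMIs (3.44 CPM) and 4 floxed UMIs (0.64 CPM). Most of these lay in cluster 17, led by the arterial-type genes Gja4 and Sox17, with 42 UMIs (8.2 CPM) and 2 UMIs (0.75 CPM), a control level 10.98-fold higher (2.86 to 93.7). Other classes with little Ace had lower floxed levels too: nephron progenitor-like cells had 46 and 3 UMIs, podocyte-like cells 45 and 3, and stroma-like cells 78 and 15. Erythroid-like and neutrophil-like cells together had 0 and 2. All these levels are under 25 CPM, and none is read as particular to endothelium.

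The 2 receptor genes were both found in mural-like and stroma-like cells, and their values moved in opposite directions. Agtr1a, the type 1 receptor that mediates most actions of angiotensin II, stood at 62.0 CPM (83 UMIs) in control mural-like cells and 96.2 CPM (45 UMIs) in floxed ones, a log2 ratio of 0.63 (0.08 to 1.17). In stroma-like cells, which held 55.7% and 66.9% of its UMIs, it stood at 24.8 CPM (875 UMIs) and 37.5 CPM (763 UMIs), 1.51-fold higher (1.37 to 1.67) in the floxed library. Agtr2, the type 2 receptor, stood at 46.3 CPM (62 UMIs) and 32.1 CPM (15 UMIs) in mural-like cells, a log2 ratio of −0.53 (−1.45 to 0.30). In stroma-like cells, with 59.4% and 65.0% of its UMIs, it stood at 38.6 CPM (1362 UMIs) and 27.7 CPM (563 UMIs), 1.40-fold lower (1.26 to 1.54) in the floxed library. None of these passed the size rule, which 3.56% of the 5448 genes tested in stroma-like cells did.

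The gap between the receptors was larger than the counting error. The log2 ratio of Agtr1a minus that of Agtr2 was 1.08 (0.88 to 1.28) in stroma-like cells and 1.16 (0.20 to 2.13) in mural-like cells. A difference of this kind does not depend on how the library totals are scaled, and it compares these libraries, not the genotypes. The 9 stroma markers summed to 5172 and 4620 CPM in stroma-like cells, with none called, and the 8 mural markers to 528 and 480 CPM.

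Within the stroma the receptors had different homes. Agtr1a was highest in cluster 5, led by the matrix genes Dcn, Postn and Lum, with 61.3 and 96.2 CPM, and was lowest of the stroma-like clusters in cluster 15, led by Ntn1 and Rspo3, with 3.51 and 5.43 CPM. Cluster 6, led by Snai2 and Col14a1, lay between, with 24.4 and 36.7 CPM. Agtr2 was spread more evenly, from 33.7 and 17.99 CPM in cluster 5 to 45.2 and 29.5 CPM in cluster 6 and 37.1 and 31.5 CPM in cluster 15. Its highest level was in cluster 13, with 68.7 and 41.0 CPM, which stayed unnamed because stroma and mural markers were too close and which was led by Nts, Alx1 and Penk. Agtr1a had 9.4 and 14.7 CPM there. In each of clusters 5, 6 and 13 the interval of Agtr1a lay above 0 and that of Agtr2 below 0 on the log2 scale. These intervals hold counting error alone, and the share of all genes with intervals off 0 is not given here. The clusters come from the same libraries and are not repeats of the comparison. The cycling cluster 18, led by Mki67, was the exception for Agtr1a, with 15.9 and 13.9 CPM (log2 −0.19, −0.65 to 0.24), and there the gap between the receptors was 0.12 (−0.39 to 0.64) against 1.56 (1.15 to 1.964) in cluster 5.

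**Figure D3:**
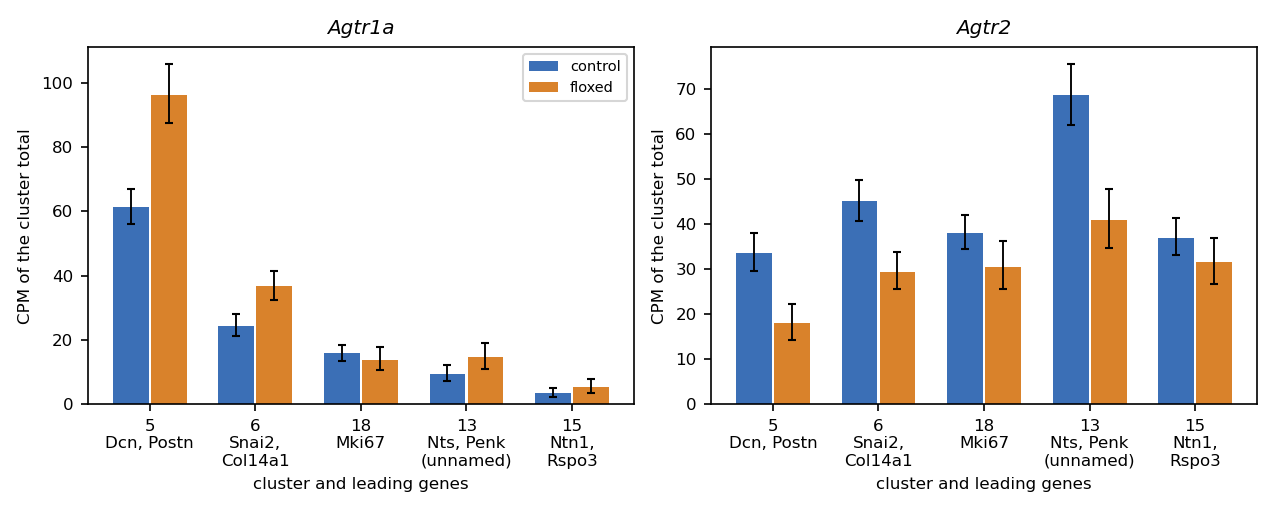
Agtr1a (left) and Agtr2 (right) in CPM of the cluster total in the 4 stroma-like clusters and unnamed cluster 13, control in blue and floxed in orange, with 95% counting intervals. Agtr1a is higher in the floxed library in 4 of the 5 clusters and Agtr2 is lower in 5 of 5. The clusters come from the same libraries and are not repeats of the comparison.

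Agtr1a also occurred in the proximal tubule-like class, where the type 1 receptor takes part in sodium uptake. It stood at 17.7 CPM (287 UMIs) in the control and 12.6 CPM (97 UMIs) in the floxed library, 1.41-fold lower (1.11 to 1.79). The difference lay in cluster 12, with 36.7 CPM (146 UMIs) and 16.8 CPM (15 UMIs), a log2 ratio of −1.13 (−2.00 to −0.36), while cluster 9 had 11.6 and 12.1 CPM (0.06, −0.35 to 0.47). In the class as a whole 4 of the 9 stroma markers were called lower. Stroma markers summed to 405 and 152 CPM in cluster 12 and to 313 and 193 CPM in cluster 9, and the part of stromal RNA in these Agtr1a values was not tested. Agtr1b, the second type 1 receptor gene of the mouse, had 46 and 38 UMIs over all kept cells.

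Atp6ap2, the (pro)renin receptor, is an accessory subunit of the vacuolar proton pump and is needed for acidification of organelles. It had UMIs in 13 of 13 named classes, with the lowest control level, 24.5 CPM, in erythroid-like cells, where the floxed level was 28.2 CPM. Erythroid-like and neutrophil-like cells together had 36.1 and 34.9 CPM, and neutrophil-like cells alone 63.9 and 69.5 CPM. Stroma-like cells had 35.8 and 37.2 CPM and nephron progenitor-like cells 29.5 and 27.6 CPM. The part of RNA from other cells in levels of this size was not tested. Ureteric bud and collecting duct-like cells had the highest control level, 115 CPM (1903 UMIs), with 111 CPM (1406 UMIs) in the floxed library (log2 −0.05, −0.15 to 0.05). Loop and distal tubule-like cells had 89.8 and 85.4 CPM, and proximal tubule-like cells 81.55 and 93.3 CPM. The collecting duct-type cluster 4, which also holds intercalated cell markers, had 142 and 128 CPM, and cluster 23, with Ret, 69.2 and 78.5 CPM. Macrophage-like cells stood at 88.0 CPM (268 UMIs) in the control and 143 CPM (276 UMIs) in the floxed library, 1.63-fold higher (1.37 to 1.93). That did not pass the size rule, which 5.22% of the 5418 genes tested in macrophage-like cells passed. The log2 ratio in macrophage-like cells was 0.76 above that in collecting duct-like cells (0.49 to 1.02), and no difference past the rule was seen for Atp6ap2 in any class.

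The macrophage-like difference was seen in cluster 22, the deeper cluster, with 101.5 and 171 CPM (log2 0.75, 0.48 to 1.02). The shallow cluster 21 had 56.3 and 60.2 CPM (0.10, −0.61 to 0.78), an interval that also holds the ratio of cluster 22. Other marker lists moved with the macrophage-like difference. In macrophage-like cells the 7 macrophage markers summed to 7184 and 10110 CPM with 3 called higher, the 7 neutrophil markers to 471 and 3589 CPM with 2 called higher, and the 6 erythroid markers to 2322 and 7547 CPM. Their part in the Atp6ap2 value was not tested. Of 20 listed genes of the pump 14 reached 25 CPM in macrophage-like cells and 0 were called, beside 5.22% of all genes tested there. The median log2 ratio of the 14 was 0.12 beside −0.03 over all genes tested. Atp6v0b had 400 and 491 CPM, and Atp6v1g1 498 and 368 CPM. In collecting duct-like cells 19 of the 20 reached 25 CPM and none was called, beside 4.12% of 5676 genes, with a median of −0.17. Atp6v1g3, an intercalated cell subunit, had 227 and 160 CPM there.

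**Figure D4:**
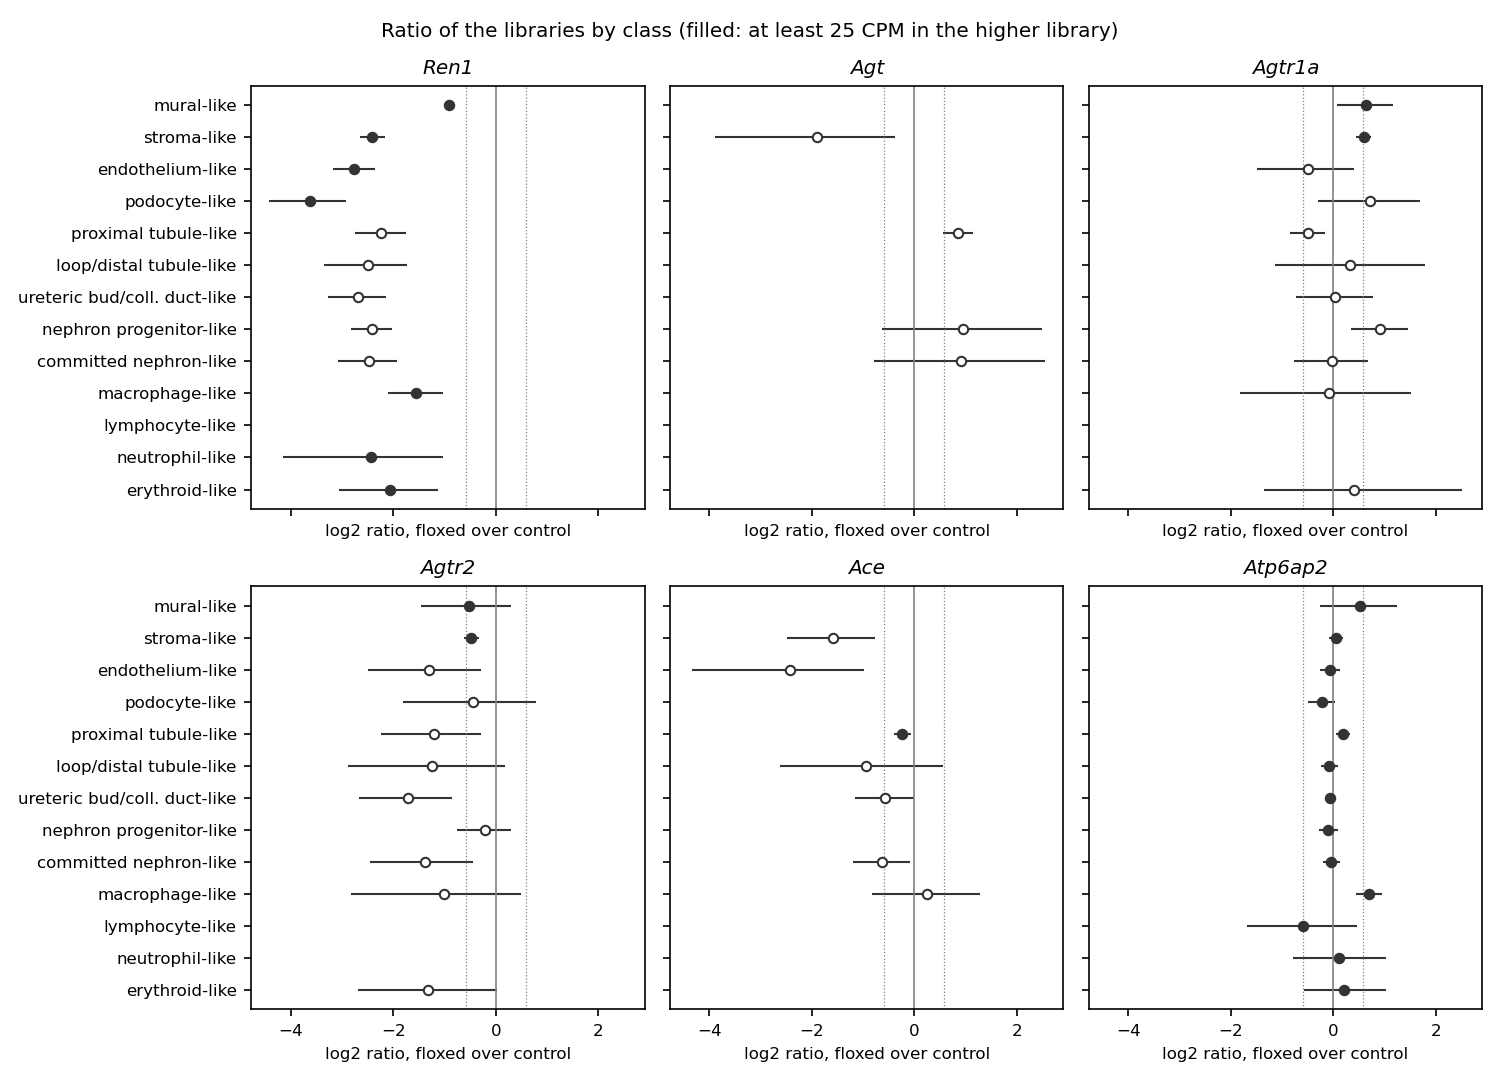
log2 ratio of the floxed over the control library for the 6 genes in 13 classes with 95% counting intervals, filled where the higher library has at least 25 CPM, with lines at 0 (solid) and 1.5-fold (dotted); classes with under 4 UMIs in either library are left out. Ren1 lies left of the dotted line in every class drawn, Agtr1a right of 0 in mural-like and stroma-like cells, and the Atp6ap2 interval in macrophage-like cells lies wholly above 0.

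Other genes of the pathway were taken from a list of 27 that includes the 6. All 27 were in the matrices, and 19 reached 25 CPM in at least 1 named class. Over the 5 classes in which the members were mainly found, 4 combinations of gene and class passed the rule: Ren1 lower in mural-like, stroma-like and macrophage-like cells and Enpep higher in stroma-like cells. The genes tested numbered 9 in mural-like, 9 in stroma-like, 9 in proximal tubule-like, 6 in macrophage-like and 4 in collecting duct-like cells, where 1.71%, 3.56%, 4.05%, 5.22% and 4.12% of all genes were called. The Ren1 calls in stroma-like and macrophage-like cells are of the kind not read as a change in those cells. Enpep, the aminopeptidase that turns angiotensin II into angiotensin III, rose there from 27.9 to 51.7 CPM, a log2 ratio of 0.89 (0.76 to 1.02). It was highest in podocyte-like cells, at 185 and 126 CPM, together with Mme, neprilysin, which degrades angiotensins, at 192 and 223 CPM. In proximal tubule-like cells 9 of the 27 reached 25 CPM and none was called, and the median log2 ratio was 0.18 beside −0.01 over all genes tested. Anpep, an aminopeptidase of the brush border, had its highest level there, with 75.4 and 85.2 CPM. Ctsa, a lysosomal carboxypeptidase, was highest in macrophage-like cells, with 264 and 326 CPM, as was Agtrap, a protein that binds the type 1 receptor, with 40.4 and 37.4 CPM. The peptidase genes Thop1, in committed nephron-like cells, and Nln, in loop and distal tubule-like cells, had 26.4 and 31.9 CPM and 21.65 and 25.01 CPM. Lnpep and Prep were highest in lymphocyte-like cells, from 17 and 17 and from 14 and 9 UMIs.

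Outside those 5 classes, Klk1, a kallikrein of the distal tubule that opposes the system through kinins, rose from 133 to 239 CPM in loop and distal tubule-like cells (log2 0.85, 0.74 to 0.97), where 3.95% of genes were called. Prcp, a carboxypeptidase that cleaves angiotensin II, rose from 26.8 to 47.1 CPM in endothelium-like cells (log2 0.81, 0.59 to 1.02), where 3.0% were called. The connexin gene Gja4, from the list of renin cell genes, fell from 98.5 to 36.8 CPM in the same class (log2 −1.42, −1.63 to −1.22). In the lymphocyte-like cluster of 53 and 76 cells, the mast cell genes Cma1, a chymase that can form angiotensin II, and Cpa3 stood at 329 and 474 CPM and at 34.2 and 462 CPM, the latter from 11 and 149 UMIs and past the rule, as were 2.94% of genes there. The peptidase gene Nln, with 9 and 0 UMIs (a count of 0 allows up to 9.30 CPM), and Ptgs2, the cyclooxygenase gene of the renin cell list, with 34 and 7 UMIs, were called lower in that cluster. Among the 8 genes under 25 CPM, Cyp11b2, the aldosterone synthase of the adrenal cortex, had 0 UMIs in both libraries, and Mas1, the receptor of angiotensin 1-7, had 6 and 5.

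The genes whose levels were most like each member were ranked by Pearson correlation of log2(CPM + 1) over 28 clusters in both libraries, 56 points that share 2 libraries, among 9729 genes. Ren1 was closest to Higd1b (r = 0.80), Dgkb (0.77) and Slc38a11 (0.76), and Agt to Myo15b (0.87), Aadat (0.85) and C1ql3 (0.85). For Agtr1a these were Afap1l2 (0.78), Sec24d (0.77) and Dpep1 (0.75), and for Agtr2 Cygb, cytoglobin (0.92), Ddr2, a collagen receptor (0.92), and Gucy1a1, a subunit of soluble guanylate cyclase (0.91). Ace was closest to Serpinf2 (0.88), Idh1 (0.87) and Pdzk1, a scaffold of the tubule's brush border (0.86). Atp6ap2 was closest to Atp6v0b (0.86), the lysosomal protease gene Ctsd (0.86) and Atp6ap1 (0.82), of which the first and the last encode parts of the same pump. The correlations are descriptions and carry no test.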

How the data were processed

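Single-cell RNA was captured from whole newborn kidney with a droplet 3′ kit, and the files hold UMI counts per gene and barcode as the authors deposited them. Per the submitters' processing notes Cell Ranger 6.0.2 and mm10 were used, and per the file headers version 6.0.1. For the annotation release, the version is not given in the sources used here. Bisulfite data, from 2 samples of sorted nephron progenitors, were not analysed here. Nothing in the labels says how many animals gave each library.

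Cells with at least 1000 UMIs, 500 genes and under 15% mitochondrial UMIs were kept. The automatic doublet call marked 0 cells in each library and had not worked, so the 8% with the highest doublet scores in each library were removed. Scanpy 1.11.5 clustered both libraries together (2000 variable genes, 30 components, 15 neighbours, Leiden resolution 1) without the pathway genes. Clusters were named from marker lists. The margins for naming, and the joining of intercalated with collecting duct cells, were set after the clusters were seen. Counts were summed per class, with exact Poisson (level), conditional binomial (ratio) and Clopper-Pearson (share) intervals at 95%, and a normal approximation on the log scale for differences of ratios. These cover counting error only, at the depths given per library. No p-value was computed because each genotype had 1 library.

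The size rule required 25 CPM in the higher library and an interval wholly beyond 1.5-fold. Tested on simulated data, it recovered 99.5% of 200 genes changed 3-fold in stroma-like cells (5117 genes) and 75.0% in mural-like cells (5200 genes). Of the unchanged genes 0 and 1 were called. These shares do not give the recovery of smaller changes, nearer the 1.5-fold limit. Differences between animals or in the mix of cells are not covered by counting intervals. The simulated counts of false calls therefore give no rate of false calls in the real libraries. The named genes were the 6 members, the 3 genes most like each by correlation, list genes past the rule in a source class, and pathway genes reaching 25 CPM. Atp6v0b, Atp6v1g1, Atp6v1g3, Akr1b7, Crip1, Rbpj, Gnas, Acta2, Myh11, Tagln, Pdgfrb, Notch3, Rgs5, Ttr, Serpina1a, Afp, Agtr1b, Mas1 and Cyp11b2 were named outside that rule, after their values were seen. A pathway gene is counted in the list but not reported here. The members and lists were chosen with earlier results of these data known. Alternatives were other filters, doublet shares, clustering resolutions, scalings (edgeR 4.0.16 TMM factors), thinning of cells to 2000 UMIs and other thresholds. Promoter sequences are from RefSeq, GRCm38.p6.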

Additional observations from a re-analysis of the deposited data

Results flagged for a closer look

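The log2 ratio of Agtr1a, the type 1 angiotensin receptor gene, differed between classes of cells. It was 0.63 in mural-like and −0.49 in proximal tubule-like cells, a difference of 1.12 (0.50 to 1.74, counting error only). Against stroma-like cells, with 0.60, the difference was 1.09 (0.73 to 1.45). Each class has 1 library per genotype, so the difference was not tested across animals. Stroma markers in proximal tubule-like cells summed to 335.5 CPM (control) and 189 CPM (floxed), and their part in it was not tested.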

How the results depend on the processing

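No paired analysis was possible because the libraries share only the replicate number 1 and no test across samples was made. Values here are log2 ratios of floxed over control unless named otherwise, and the cause of each shift was not tested. Across 13 alternatives planned for each ratio, Ren1 stayed below 0 in mural-like cells and over all cells in 13 of 13, Agtr1a above 0 in mural-like and stroma-like cells in 13 of 13, and Agtr2 below 0 in stroma-like cells in 13 of 13 but in mural-like cells in 12 of 13. Other Leiden resolutions, pathway genes in clustering and assignment to control clusters only regroup the same cells. Over all cells these return the main value by construction. Thinning to 2000 UMIs gave Ace 0.092 in proximal tubule-like cells (reversed from −0.237) and −0.365 over all cells, Agt 0.483 and −0.094, Agtr1a −1.18 and 0.549, Ren1 −0.243 in mural-like cells and −1.264 over all cells, and cells with at least 2 Ren1 UMIs 0.899% of control and 0.198% of floxed cells. A stricter cell filter gave Ace −0.366, Agt 0.56 and Ren1 −1.769 over all cells, Agtr2 −0.63 in stroma-like and Ren1 −0.717 in mural-like cells. A looser filter gave Ren1 −0.764 in mural-like cells and −1.746 over all cells, Atp6ap2 0.092 in collecting duct-like cells and 7 pathway calls against 4. The 10000 deepest barcodes gave Agtr1a 0.861 in stroma-like cells, Agtr2 −0.371 over all cells, Ren1 −1.991 in mural-like cells and −2.53 over all cells, and 9 pathway calls. Removing 15% as doublets gave Atp6ap2 0.274 in collecting duct-like cells, and removing none gave Ren1 −1.086 in mural-like cells. Assigning floxed cells to control clusters gave Atp6ap2 0.134, Ren1 −0.765 and 8 pathway calls. TMM scaling gave Ren1 −0.991 in mural-like cells. A minimum of 10 CPM gave 7 pathway calls and a 2-fold limit 2, and a limit of 5 Ren1 UMIs gave 0.477% of control cells. Alternatives chosen after seeing the data were single clusters, the richest cells and all barcodes. Cluster 12 alone gave Ace −0.01, Agt 2.238 and Agtr1a −1.129, and cluster 9 Agt 0.511 and Agtr1a 0.063 (reversed). Cluster 18 gave Agtr1a −0.195 (reversed) and Agtr2 −0.319, cluster 15 Agtr2 −0.234 and cluster 5 Agtr2 −0.906. Without the 3 richest cells Ren1 was −1.733 in mural-like cells and −2.455 over all cells, and over all barcodes −1.945. Few UMIs lie behind Agt, 313 and 209 in all, and its intervals are wide for that reason.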
